A study of Danio rerio with 7 samples.

Results

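Among the zebrafish melanoma cells annotated as invasive, a minority held transcripts of *mbpa* (ENSDARG00000036186), which encodes a myelin basic protein, a structural protein of the myelin sheath. The cells described here are the 310 invasive cells with at least 2000 raw unique molecular identifiers (UMIs, each marking 1 captured transcript), out of 3968 cells in the library. They were divided by *mbpa* itself: 35 cells had an *mbpa* value of at least 1, and 275 cells had a value of 0. A further 23 invasive cells lay under 2000 raw UMIs, 11 of them with *mbpa*, so that 46 of all 333 invasive cells held it. Because *mbpa* chose the groups, its own values are given as a description only. All cells came from 1 library, so that no difference between groups of cells has a replicate, no test was run, and intervals on shares of cells cover counting error only.

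The study profiled melanomas raised by TEAZ, in which plasmids are electroporated into the skin of adult zebrafish. The host fish were casper (mitfa-/-;mpv17-/-) and p53-/-, and carried mitfa:BRAF V600E, a human oncogene driven by the melanocyte promoter of *mitfa*. The plasmids were MinicoopR-tdT, which restores *mitfa* and marks cells with tdTomato, mitfa:Cas9, guides against *ptena* and *ptenb* (U6:sgptena and U6:sgptenb), and Tol2 transposase. Tumor and adjacent tissue of 6 fish (3 male and 3 female), collected at 3 months after TEAZ, were pooled into 1 droplet reaction. The cells with and without *mbpa* thus came from a pool of fish with these alleles and not from a clone. The plasmids were injected and electroporated at 1 site, so that a given cell may hold none of them. Because BRAF V600E and Cas9 were driven by the *mitfa* promoter, their transcripts mark cells that use or used that promoter. BRAF V600E was carried by the fish and Cas9 by a plasmid, so that a cell without Cas9 transcripts may also lack the plasmid. The deposited values are counts that the authors had corrected to a common depth, which sum to between 5400 and 9687 per cell, and they are called corrected counts below. No sequence is shown, since the material used here held none for these genes.

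Schwann cells are the glia of peripheral nerves. Like melanocytes they arise from the neural crest, in part through a shared precursor that travels along nerves, and both lineages use the transcription factor Sox10. A Schwann cell that myelinates switches on Egr2 (Krox20), wraps an axon, and makes large amounts of myelin basic protein, myelin protein zero, proteolipid proteins and claudins, whereas after nerve injury Schwann cells lose myelin, raise Jun and divide.

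*mbpa* was largely a feature of the invasive cells. It was above 0 in 11.3% of the invasive cells with at least 2000 raw UMIs (35 of 310, exact Clopper-Pearson 95% interval 7.99% to 15.4%), against 0.538% of all other cells of that depth (17 of 3157, 0.314% to 0.861%). The invasive state had been set by the authors' clustering, which used these same genes, so that this contrast is a description. The level separated the groups further: in the 35 cells *mbpa* ran from 1 to 146 with a median of 18 and a mean of 29.5 corrected counts per cell, and 25 of them held at least 5, whereas the highest value outside the invasive state was 4. In the tumor microenvironment (TME), which serves here as background, 5 of 965 cells (0.518%) held *mbpa*, each at 1. The cells just inside the threshold were the 3 cells with an *mbpa* of 1. Their raw depths were 3667, 11412 and 17356 UMIs, they held 7, 2 and 9 of the 18 other myelin genes described below, and their *krt18a.1* values were 6, 94 and 76. Just outside the threshold lay the 275 cells at 0.

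The cells with *mbpa* were shallower. Their raw depth ran from 2085 to 19149 UMIs with a median of 4460, against 2164 to 56640 with a median of 8432 in the cells without *mbpa*, and they held a median of 1565 against 2233 detected genes. A greater depth therefore did not accompany the detection of *mbpa*. The mitochondrial share of UMIs was close in both, with medians of 1.27% with *mbpa* and 1.1% without. The ribosomal share differed more, with a median of 13.7% (4.42% to 33.3%) in cells with *mbpa* and 28.2% (6.18% to 49.2%) in cells without. Of the 35 cells with *mbpa*, 30 lay below the ribosomal median of the cells without it, and 20 of the 275 cells without *mbpa* lay below the median of those with it. When the cells without *mbpa* were weighted to the raw depth of the cells with it, their median depth became 4744 UMIs and their median ribosomal share 24.9%. Depth-weighted values are given below for the gene lists and for each named gene whose direction or 2-fold call they change, and the part of depth and of ribosomal share in them was not tested further.

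**Figure D1:**
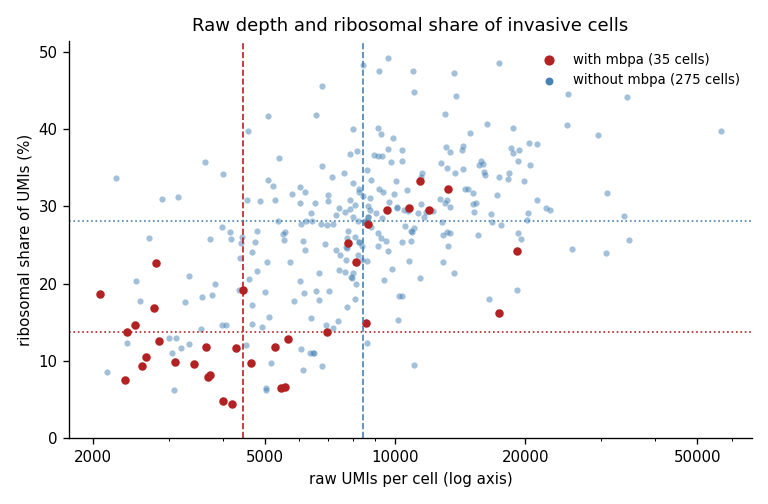
Raw UMIs per cell (x axis, log scale) against the ribosomal share of UMIs (y axis, percent) for the 35 invasive cells with *mbpa* (red) and the 275 without (blue). Dashed lines are the median depths (4460 and 8432 UMIs) and dotted lines the median ribosomal shares (13.7% and 28.2%), and most red points lie to the lower left.

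The correction of depth left a mark on some genes that bears on the comparison. *Cas9-mCherry* was above 0 in every one of the 738 shallowest cells of the library, and the first cell at 0 had 3071 raw UMIs. The same held for the 728 shallowest cells for *sox10*, 701 for *krt18a.1* and 679 for *mitfa*, with the first cells at 0 at 3022, 2889 and 2798 raw UMIs. TME cells showed the same jump: *Cas9-mCherry* was above 0 in 100% of TME cells with 2000 to 3000 raw UMIs, of which 95.5% held exactly 1, but in 8.65% of TME cells from 3000 raw UMIs. For these genes a value of 1 in a cell under about 3000 raw UMIs is therefore not read as detection, and their shares are given from 3000 raw UMIs (26 cells with *mbpa*, 267 without). No such run of cells was seen for *mbpa*, *pdgfbb*, *hsBRAF* or the myelin genes *mbpb*, *plp1b*, *zwi*, *gldn*, *cldnk* and *mpz*. Such a run was also present for other genes, among them *pmp22b*, *hmgb2b*, *hmgb2a*, *jun* and *btg2*, with the first cells at 0 at 2713, 3181, 3937, 4494 and 4675 raw UMIs.

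Both genes that the authors name for the invasive state were also present in the cells with *mbpa*, which had been taken from that state. *pdgfbb* (ENSDARG00000038139), a platelet-derived growth factor ligand, averaged 4.29 corrected counts per cell with *mbpa* (0 to 27, median 2) and 3.76 without (0 to 37, median 1), a log2 ratio of 0.19 that became -0.09 with depth weights. It was above 0 in 26 of 35 cells with *mbpa* (74.3%, 56.7% to 87.5%) and in 170 of 275 without (61.8%, 55.8% to 67.6%), so that the intervals overlapped, whereas in the other melanoma states and the TME it was above 0 in 1.04% to 4.94% of cells. *krt18a.1* (ENSDARG00000018404), a keratin of simple epithelia, averaged 32.7 with *mbpa* (1 to 124, median 18) and 25.8 without (0 to 222, median 10), a log2 ratio of 0.34 and of 0.35 with depth weights. From 3000 raw UMIs it was above 0 in all 26 cells with *mbpa* (100%, 86.8% to 100%) and in 243 of 267 without (91.0%, 86.9% to 94.2%). At that depth it was also above 0 in 68.4% of inflammatory, 52.5% of proliferative, 45.6% of stressed and 16.1% of melanocytic cells. The share in the TME was 36.1%, so that *krt18a.1* was not particular to the invasive state. The values of both genes overlapped between the groups over nearly their whole range, and neither was 2-fold apart. Other simple keratins were close as well, with *krt8* at 32.3 against 36.9 and *krt18b* at 19.8 against 22.9 corrected counts per cell with and without *mbpa*.

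*mitfa*, the master regulator of melanocytes, was lower in the cells with *mbpa*. It averaged 0.657 corrected counts per cell with *mbpa* (0 to 8, median 0) and 4.47 without (0 to 37, median 2), a log2 ratio of -2.67 and of -2.40 with depth weights. From 3000 raw UMIs it was above 0 in 6 of 26 cells with *mbpa* (23.1%, 8.97% to 43.6%) and in 165 of 267 without (61.8%, 55.7% to 67.7%), beside 7.13% of TME cells. By raw depth, the shares were 0 of 10 against 22 of 37 cells between 3000 and 5000 UMIs, 3 of 10 against 74 of 128 between 5000 and 10000, and 3 of 6 against 69 of 102 above. The share was thus lower with *mbpa* in each of these depth ranges, with few cells in each. Among the other melanoma states *mitfa* averaged 6.15 corrected counts per cell in stressed, 5.40 in melanocytic and 2.23 in proliferative cells, but 0.687 in inflammatory cells, of which 25.9% were above 0 from 3000 raw UMIs. Low *mitfa* was thus shared with the inflammatory state. Because the hosts were mitfa-/- and MinicoopR-tdT restores *mitfa*, these values can hold host and plasmid transcripts, which were not told apart. Whether cells low in *mitfa* held that plasmid was not tested.

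The transgenes driven by the *mitfa* promoter were rare in the cells with *mbpa*. *Cas9-mCherry* averaged 0.886 corrected counts per cell with *mbpa* (0 to 21, median 0) and 2.25 without (0 to 58, median 0), a log2 ratio of -1.30 and of -1.05 with depth weights. It was above 0 in 11 of the 35 cells with *mbpa*, but 10 of the 11 held exactly 1, and 9 of these were all of the cells under 3000 raw UMIs. From 3000 raw UMIs it was above 0 in 2 of 26 cells with *mbpa* (7.69%, 0.946% to 25.1%), against 116 of 267 without (43.4%, 37.4% to 49.6%), and in 8.65% of TME cells (6.86% to 10.7%), so that the share with *mbpa* did not stand above that background at this depth. The remaining cell held 21 *Cas9-mCherry* at 13284 raw UMIs, together with 8 *mitfa*, 5 *mbpa* and 10 of the 18 other myelin genes. Without that 1 cell no cell with *mbpa* reached 2 *Cas9-mCherry*, whereas 34.5% of the cells without *mbpa* did. The human oncogene transcript, *hsBRAF*, for which no run of shallow cells was lifted off 0, was above 0 in 1 of 35 cells with *mbpa* (2.86%, 0.0723% to 14.9%) and in 72 of 275 without (26.2%, 21.1% to 31.8%), beside 1.14% of TME cells, 7.65% of inflammatory cells and 29.9% to 57.8% of the cells of the other 3 melanoma states. Between 2000 and 3000 raw UMIs every cell above 0 for *hsBRAF* was already at 2 or more. In that range its shares with and without *mbpa* were 0 of 9 against 1 of 8 cells. At 3000 to 5000 UMIs they were 0 of 10 against 8 of 37. They were 1 of 10 against 28 of 128 at 5000 to 10000, and 0 of 6 against 35 of 102 above. The share without *mbpa* rose with depth. The other melanoma states were deeper, with median depths of 8876 to 15310.5 UMIs against 4460 with *mbpa*. In the inflammatory state *Cas9-mCherry* averaged 0.809 and was above 0 in 25.7% of cells from 3000 raw UMIs (22.0% to 29.7%). *EGFP* was at 0 in all 35 cells with *mbpa*, which allows a share of up to 10.0%, and above 0 in 1 of 275 without, and tdTomato was not analysed here.

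*sox10*, shared by melanocytes and Schwann cells, was kept. It averaged 4.57 corrected counts per cell with *mbpa* (0 to 15, median 4) and 3.28 without (0 to 14, median 3), a log2 ratio of 0.47 and of 0.58 with depth weights. From 3000 raw UMIs it was above 0 in 24 of 26 cells with *mbpa* (92.3%, 74.9% to 99.1%) and 233 of 267 without (87.3%, 82.7% to 91.0%), against 5.96% of TME cells. On *sox10* the cells with *mbpa* thus lay with the melanoma states, while on *Cas9-mCherry* and *hsBRAF* their intervals took in the values of the TME. The interval for *hsBRAF* also took in the value of the inflammatory melanoma state, and that for *Cas9-mCherry* overlapped the interval of that state.

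**Figure D2:**
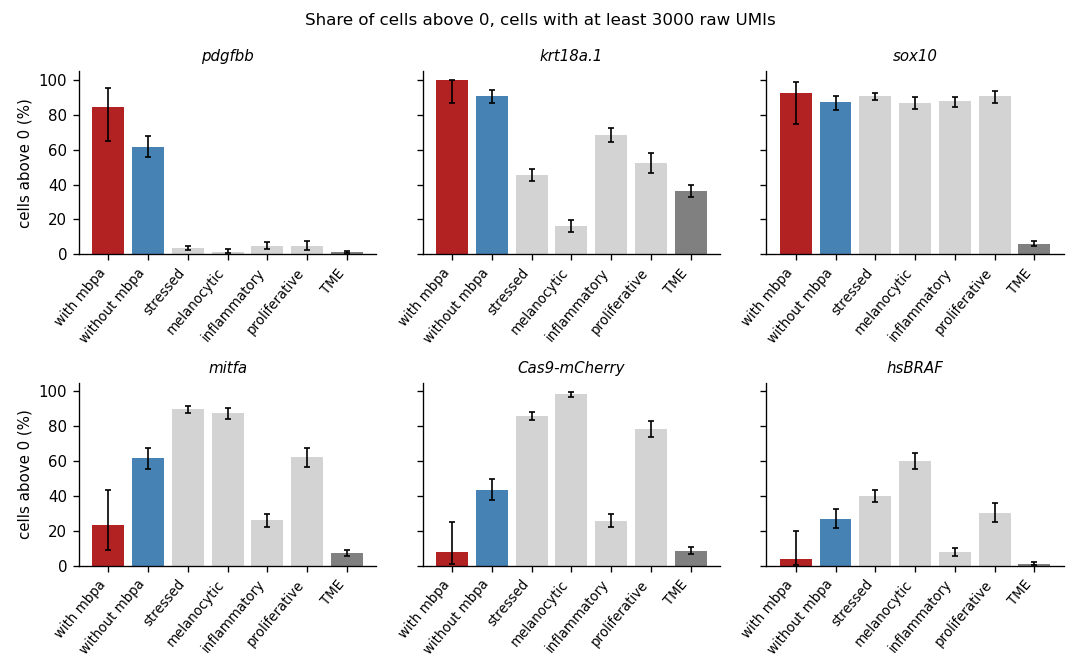
Share of cells above 0 (y axis, percent, with exact 95% intervals) for 6 genes in cells with at least 3000 raw UMIs: invasive cells with *mbpa* (red, 26 cells), invasive cells without (blue, 267 cells), the other 4 melanoma states (light grey) and the TME (dark grey). *pdgfbb* is high only in the 2 invasive groups of this plot, *sox10* is high in all melanoma groups, and *mitfa*, *Cas9-mCherry* and *hsBRAF* are lower with *mbpa* (23.1%, 7.69% and 3.85%) than without (61.8%, 43.4% and 26.6%).

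Over all genes, 8704 were above 0 in at least 5 of the 310 cells with a mean of at least 0.05. Of these, 559 (6.42%) were at least 2-fold higher and 1563 (18%) at least 2-fold lower with *mbpa*, on the scale of mean corrected counts plus 0.05. Entry took both groups together, and 275 of the 310 cells were without *mbpa*. Rare genes could therefore enter through those cells alone, and such genes can be called lower because of the filter. The count of lower genes shrank with a larger pseudocount or a higher limit on the mean, as given among the settings below. The median log2 ratio over all 8704 genes was -0.28, and -0.09 with depth weights, so that the genes as a whole were shifted toward lower corrected counts with *mbpa*. The corrected counts summed to a median of 6982 per cell with *mbpa* and 7966 without, a difference in the same direction. The part of these totals in the shift and in the 18% of lower genes was not tested. Relative to the median log2 ratio of all genes, 882 genes were higher and 931 lower, which moves the higher share of the calls to 48.6%, from 26.3% as they stand. Of the genes past 2-fold, 425 higher and 895 lower ones were also past it both with depth weights and among cells from 3000 raw UMIs.

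The myelin genes stood apart from this shift. Of 26 listed myelin genes other than *mbpa*, 18 were in the table and 14 entered the comparison, of which 11 were at least 2-fold higher and 1 lower with *mbpa*, with a median log2 ratio of 4.0 against -0.28 over all genes (3.43 against -0.09 with depth weights). Over all genes, 6.42% were higher and 18% lower. The filter for entry took both groups together. *mpz* and *nfasca*, at 0.00364 and 0.0291 without *mbpa*, therefore entered only through the cells with it. The same can hold for members of the other lists. Members called lower can likewise have entered only through the cells without *mbpa*. Their summed corrected counts per cell ran from 4 to 474 with a median of 80 in cells with *mbpa*, from 0 to 91 with a median of 6 in cells without, and had a median of 10 in the TME. The list was drawn up with earlier results of these data known, and the zebrafish pairs *mbpa* and *mbpb*, *plp1a* and *plp1b*, and *pmp22a* and *pmp22b* are close copies whose reads the counting may have split.

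Among the sheath proteins, *mbpb* (ENSDARG00000089413), the second myelin basic protein gene, averaged 20.6 corrected counts per cell with *mbpa* (0 to 210, median 6) and 0.324 without (0 to 4). It was above 0 in 29 of 35 cells (82.9%, 66.4% to 93.4%) and 59 of 275 (21.5%, 16.8% to 26.8%), but the share without *mbpa* lay at the 23.5% of the TME cells, whose median depth was 7102 UMIs, and is read as background. *plp1b* (ENSDARG00000011929), a proteolipid protein, averaged 13.4 with *mbpa* (0 to 55, median 9) and 0.509 without (0 to 17), and was above 0 in 32 of 35 and 46 of 275 cells, beside 1.87% of TME cells. Its copy *plp1a* averaged 2.31 against 0.105. *mpz*, which encodes the main adhesion protein of peripheral myelin in mammals, was confined to few cells: it was above 0 in 7 of 35 cells with *mbpa* and in 1 of 275 without. The 5 cells that held at least 2 *mpz* had between 4 and 99 of it, and their *mbpa* values ran from 31 to 146. Among the invasive cells, *mpz* of 2 or more was thus seen only in cells with at least 31 *mbpa*.

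The claudins and the proteins of nodes and axon contacts followed. *cldnk* (ENSDARG00000042357), a claudin of fish myelin, averaged 4.66 with *mbpa* (0 to 31, median 3) and 0.0909 without (0 to 5), and *cldn19* averaged 2.74 against 0.196. *gldn*, gliomedin, which Schwann cells use to gather sodium channels at nodes of Ranvier, averaged 10.9 with *mbpa* (0 to 51, median 8) and 0.542 without (0 to 11). *nfasca*, a neurofascin, averaged 1.49 against 0.0291, *cadm4*, an adhesion protein by which Schwann cells hold axons, 4.46 against 0.524, and *mag*, myelin-associated glycoprotein, 0.80 against 0.0582. *zwi* (ENSDARG00000101826), a zebrafish myelin gene, was the most widely held: it averaged 28.5 with *mbpa* (0 to 101, median 23) and 1.66 without (0 to 66, median 0), and was above 0 in 34 of 35 and 65 of 275 cells, beside 0.725% of TME cells. Each of these genes was far more common with *mbpa*, but *zwi*, *plp1b* and *gldn* were also held by 23.6%, 16.7% and 16.7% of the cells without *mbpa*, well above the TME.

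Not all myelin genes followed. *pmp22b* averaged 8.40 with *mbpa* and 4.78 without, a log2 ratio of 0.81 under the 2-fold limit, *cnp* had a log2 ratio of -0.66, and *pmp22a*, at 0.286 against 0.716, was lower by the 2-fold rule. *prx*, *cd9b* and *cntn1b* were at 0 in all 35 cells with *mbpa*, and above 0 in 2, 3 and 0 of the 275 without, and *mpzl2b* was above 0 in 1 and 4 cells. Periaxin, the product of *prx*, belongs to mature peripheral myelin in mammals.

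**Figure D3:**
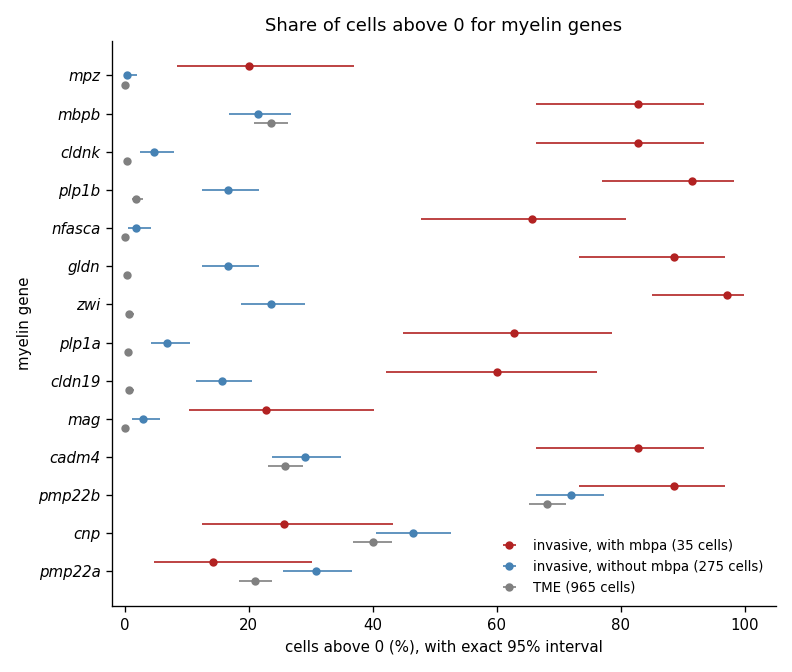
Share of cells above 0 (x axis, percent, with exact 95% intervals) for the 14 myelin genes that entered, ordered by log2 ratio from highest at the top, in invasive cells with *mbpa* (red), invasive cells without (blue) and the TME (grey). The red points lie right of the blue ones except for *cnp* and *pmp22a*, and for *mbpb*, *cadm4*, *cnp*, *pmp22b* and *mpz* the blue intervals overlap the grey ones.

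The myelin genes occurred together in the same cells. Cells with *mbpa* held between 2 and 13 of the 18 other myelin genes, with a median of 9, and cells without held between 0 and 10, with a median of 3, while medians in the other melanoma states and the TME were 1 to 2. At least 7 of the 18 were present in 30 of the 35 cells with *mbpa* (85.7%, 69.7% to 95.2%) and in 16 of the 275 without (5.82%, 3.36% to 9.28%), in none of the cells of the 4 other melanoma states and in 2 of 965 TME cells. Counting only genes at 2 or more, 32 of 35 cells with *mbpa* (91.4%) and 14 of 275 without (5.09%) held at least 5. Between 2000 and 3000 raw UMIs, however, every cell above 0 for *mbpb*, *plp1b* or *cldnk* was already at 2 or more. That range held 9 of the cells with *mbpa* and 8 of those without. The limit of 2 therefore cannot show whether the difference rests on single captured transcripts in such cells.

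The 16 cells without *mbpa* that nonetheless held at least 7 other myelin genes resembled those with *mbpa* in several measures. Their raw depth had a median of 6148.5 UMIs, so that they were not the shallowest cells, and their ribosomal share had a median of 16.7%, against 28.7% in the remaining 259 cells without *mbpa*. Their *zwi* ran from 1 to 66 with a median of 13, *notch3* was above 0 in 12 of 16, against 21 of 259, and *hsBRAF* was above 0 in 1 of 16, against 71 of 259. *krt18a.1* averaged 70.0 in these 16 cells and 23.1 in the 259, and *pdgfbb* 5.50 and 3.65. *Cas9-mCherry* differed from the cells with *mbpa*, as 5 of the 16 held at least 2, with a highest value of 58. *mitfa* differed as well, averaging 3.31 in the 16 cells, 4.54 in the 259 and 0.657 in the 35 with *mbpa*. It was at 2 or more in 3 of those 35 and in 6 of the 16. The 16 cells were chosen by their myelin genes, so that the values describe them and test nothing.

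Among the 35 cells the level of *mbpa* and the other genes varied together. The 15 cells with an *mbpa* of 1 to 9, the 13 with 10 to 49 and the 7 with 50 or more held medians of 8, 9 and 12 other myelin genes and medians of 2, 15 and 29 *mbpb*. *zwi* had medians of 12, 23 and 47, *gldn* of 4, 8 and 24, and *plp1b* of 5, 10 and 18 in that order. *krt18a.1* went the other way, with medians of 34, 9 and 8, and its highest value was 18 in the 7 cells with the most *mbpa*, against 124 in the 15 cells with the least. The ribosomal share had medians of 16.2%, 12.8% and 7.88%, and raw depth medians of 7782, 3740 and 5439 UMIs, so that depth did not follow the same order. The cells with the least *mbpa* were nonetheless the deepest by median. *krt18a.1* averaged 19.0, 25.4, 44.6 and 45.3 in cells with *mbpa* at 2000 to 3000, 3000 to 5000, 5000 to 10000 and at least 10000 raw UMIs. The part of depth in its lower values was not tested. *mitfa* and *Cas9-mCherry* were at 0 in all 7 cells with 50 or more, which allows a share of up to 42.9% by an approximate limit and not an exact interval. *pdgfbb* was above 0 in all 7 (2 to 27, median 3) and *sox10* in all 7 (2 to 15, median 5). The cells with the most *mbpa* thus held *pdgfbb*. *krt18a.1*, the other gene named for the invasive state, was lower in them than in the 15 cells with the least *mbpa*. All 35 cells had been taken from the invasive cluster, which was built on these same genes, so that these values are a description.

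**Figure D4:**
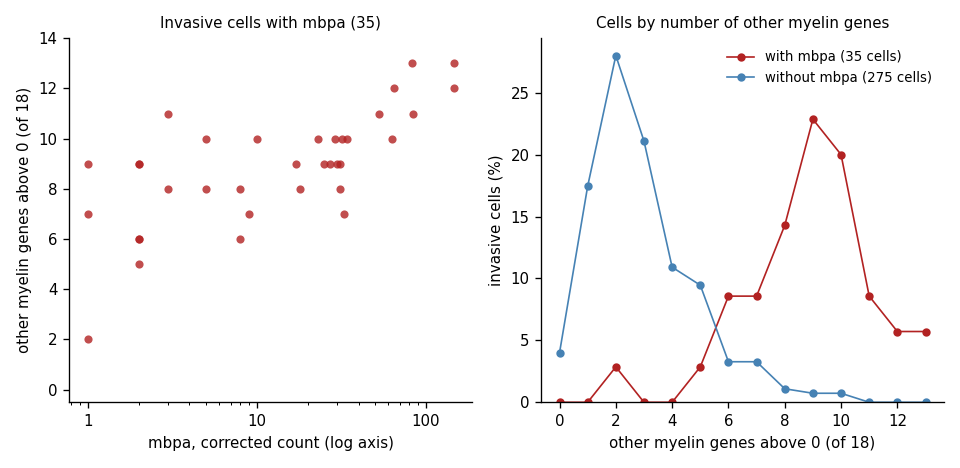
Left, the *mbpa* value (x axis, corrected counts, log scale) and the number of other myelin genes above 0 (y axis, of 18) in each of the 35 invasive cells with *mbpa*. Right, the percentage of invasive cells (y axis) by number of other myelin genes (x axis), with *mbpa* (red, median 9) and without (blue, median 3): the curves cross between 5 and 6 genes, and the blue one has a tail to 10.

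The Schwann cell lineage genes outside the sheath divided. Of 29 listed, 28 were in the table and 20 entered, of which 4 were at least 2-fold higher and 3 lower with *mbpa* (5 and 3 with depth weights), beside 6.42% higher and 18% lower over all genes, so that the share of lower genes was near that of all genes. The median log2 ratio was 0.23 against -0.28 over all genes, and 0.34 with depth weights. Higher were *egr2b*, which in mammals and fish drives myelination, at 2.09 (0 to 10) against 0.138 (0 to 14) and above 0 in 17 of 35 and 15 of 275 cells, *itgb4*, the laminin-binding integrin beta subunit of mature Schwann cells, at 1.74 against 0.531, *pou3f1* (Oct6), which precedes Egr2 in promyelinating cells, at 2.57 against 1.09, and *fabp7a*, a fatty acid binding protein of glial precursors, at 23.6 against 10.3 (a log2 ratio of 0.83, under 2-fold, with depth weights). *egr2b* and *pou3f1* were both above 0 in 11 of the 35 cells. Lower were *ngfra* and *ngfrb*, receptors of the p75 family that immature and repair Schwann cells carry, at 0.0857 against 0.731 and at 0.114 against 0.396, and *s100b*, a common marker of Schwann cells, at 0.20 against 0.658. *foxd3* (5.71 against 4.59), *sox2* (2.31 against 1.63) and *erbb2* (0.971 against 0.484, log2 ratio 0.94, but 1.26 with depth weights) did not reach 2-fold, and neither did the other neuregulin receptors, *erbb3a* at 0.171 against 0.116 and *erbb3b* at 0.143 against 0.171. *adgrg6* was lower by less than 2-fold, at 0.514 against 1.01, and was above 0 in 12 of 35 and 152 of 275 cells. *sox8b*, *gfap*, *fabp7b*, *ncam1b*, *l1camb* and *nrg1* were at 0 in all 35 cells, and *cadm1b* and *dhh*, too rare to enter, were above 0 in 6 and 1 cells with *mbpa* and 1 and 3 without.

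Genes of the repair Schwann cell moved in both directions. Of 21 listed, 16 were in the table and 9 entered, with 2 higher, 5 lower and a median log2 ratio of -1.07 (3, 4 and -0.85 with depth weights). Over all genes, 6.42% were higher and 18% lower, and these shares also stand beside the counts of the immediate early list below. *jun*, the central factor of the repair state in mice, averaged 51.5 with *mbpa* (0 to 270, median 44) and 14.1 without (0 to 170, median 7), and *junbb* 29.6 against 14.7, whereas the neurotrophin and growth factor genes *bdnf* and *artnb* were at 0 in all 35 cells and above 0 in 30 and 27 of the 275. The direction of this median turned to 0.13 without a filter on rare genes and to 0.49 with only genes of a mean of at least 0.2. *jun* also belongs to the immediate early and stress genes, of which 28 of 30 entered, with 9 higher, 2 lower and a median of 0.68 (8, 1 and 0.76 with depth weights). Higher besides *jun* and *junbb* were *fosab* (45.3 against 18.2), *fosb* (22.9 against 8.79), *btg2* (31.3 against 11.3), *atf3* (10.3 against 4.16), *ier2b*, *hsp70l* and *dnajb1b*, and lower were *nr4a1* and *egr1*. With depth weights *ier2b* (0.75), *hsp70l* (0.97), *dnajb1b* (0.62) and *egr1* (-0.85) were under 2-fold. *jun* fell with raw depth in both groups. It averaged 88.8 with *mbpa* against 28.1 without at 2000 to 3000 UMIs, and 53.2 against 22.4 at 3000 to 5000. At 5000 to 10000 UMIs it averaged 35.8 against 15.1, and above that 19.2 against 8.66. Stressed and inflammatory cells at 2000 to 3000 UMIs averaged 65.9 and 38.7 *jun*.

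Of the neural crest genes, 29 of 30 were in the table and 16 entered, with 1 higher (*id3*, in 4 of 35 and 20 of 275 cells), 6 lower and a median of -0.06, beside 6.42% higher and 18% lower over all genes. The direction of this median turned to 0.15 with depth weights, with 2 higher and 5 lower, and to 0.13 from 3000 raw UMIs. *tfap2a*, a crest and melanocyte transcription factor, averaged 0.286 with *mbpa* (above 0 in 6 of 35 cells) and 1.59 without (164 of 275), a log2 ratio of -2.29. Its relative *tfap2c* averaged 0.343 against 1.13, and *crestin*, a crest marker of zebrafish that melanomas switch on again, 1.57 against 3.27 (log2 ratio -1.03, but -0.93 with depth weights). *pax3a* (1.89 against 1.36) and *ednrba* (1.37 against 0.684, log2 ratio 0.95, but 1.02 with depth weights) were under 2-fold.

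Of 25 pigmentation genes, 21 were in the table and 15 entered, with 3 higher, 5 lower and a median of -0.41 (4, 4 and -0.12 with depth weights), beside 6.42% and 18% over all genes. Beside *mitfa*, *mlpha*, a carrier protein of melanosomes, was lower, at 0.257 against 1.16. *tyrp1b*, *pmela* and *tyrp1a*, genes of melanin synthesis and the melanosome matrix, were higher by the means, but *tyrp1b* was above 0 in 4 of 35 and 17 of 275 cells, with a highest value of 37 with *mbpa*, so that few cells carried the difference. *tyrp1a* was above 0 in only 2 of the 35 cells. The correction of depth adds counts to *pmela* in shallow cells. From 3000 raw UMIs *pmela* was above 0 in 5 of 26 cells with *mbpa* and 46 of 267 without. *tyr*, *oca2* and *slc24a5* were at 0 in all 35 cells, and the log2 ratio of *tyr* was -1.30, but -0.81 with depth weights. Among PDGF genes 3 of 9 entered, and *pdgfab* (0.343 against 0.829) and *pdgfrl* (0.543 against 1.78) were lower, of which *pdgfab* was under 2-fold with depth weights (log2 ratio -0.75), while the receptors *pdgfra* and *pdgfrb* were at 0 in all 35 cells with *mbpa*.

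The invasive and mesenchymal list, which includes *krt18a.1*, had 29 of 51 genes entered, with 3 higher, 5 lower and a median of -0.22 (2, 4 and -0.07 with depth weights). These counts and the median were near those of all genes (6.42%, 18% and -0.28), so that the members named next describe single genes and not the list. Higher were *sparc*, a matrix glycoprotein, at 26.3 with *mbpa* (0 to 114, median 25) and 6.05 without (0 to 84, median 1), *timp2b* and *cdh11*. *cdh11* was higher by less than 2-fold with depth weights (log2 ratio 0.59). Lower were *vim*, the intermediate filament of mesenchymal cells, at 10.9 against 30.4, *ccn2a*, a target of YAP, at 0.371 against 2.11, *krt4* at 3.77 against 9.25, *cdh1* (log2 ratio -1.11, but -0.73 with depth weights) and *mmp14b*. *krt4*, a keratin of the surface epithelium, was above 0 in 6 of 35 cells with *mbpa* and 190 of 275 without. *zeb2a*, a factor of both mesenchymal melanoma cells and myelinating Schwann cells, averaged 6.09 against 4.67. Of the basement membrane genes 15 of 25 entered, with 3 higher, 1 lower and a median of 0.16 (3, 1 and 0.0013 with depth weights), beside the same 6.42% and 18% over all genes. *dag1*, dystroglycan, a laminin receptor on the outer face of the Schwann cell, averaged 2.03 against 0.498 and was above 0 in 27 of 35 and 100 of 275 cells, and *lamb1b*, a laminin beta chain, averaged 3.71 against 1.07, while the collagen gene *col4a1* was closer, at 4.89 against 3.19.

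Lipid genes did not move together. The counts of the lists in this paragraph stand beside 6.42% of genes higher and 18% lower over all genes. In the list of myelin lipid synthesis 14 of 21 genes entered, with 3 higher, 1 lower and a median of 0.29 (3, 1 and 0.28 with depth weights). *elovl1a*, which elongates very long fatty acids, was above 0 in 7 of 35 and 5 of 275 cells, and *scdb*, a desaturase, and *fa2h*, which hydroxylates myelin sphingolipids, were higher in few cells, whereas *ugt8*, the enzyme of galactosylceramide synthesis, averaged 1.86 against 1.49. In cholesterol synthesis 14 of 26 entered, with none higher, 4 lower and a median of -0.57 (0, 3 and -0.41 with depth weights), and all were below 1 corrected count per cell in both groups. Of the S phase list 14 of 25 entered, with none higher, 7 lower and a median of -1.03 (0.65 with only genes of a mean of at least 0.2). With depth weights 4 of them were lower, and the median was -0.87. Of the G2/M list 5 of 25 entered, with none higher, 2 lower and a median of -0.46 (0, 1 and -0.63 with depth weights). In that list *hmgb2a* and *hmgb2b*, chromatin proteins, were above 0 in 32 and 28 of 35 cells with *mbpa* and in 220 and 221 of 275 without. Both were above 0 in every cell of the library under 3937 and 3181 raw UMIs, so that these shares are not read as detection.

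**Figure D5:**
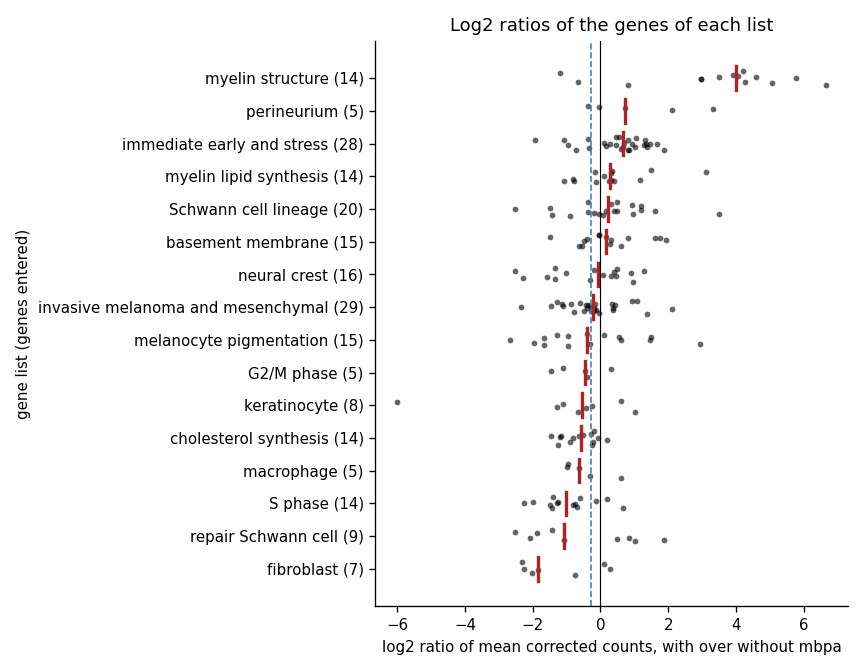
Log2 ratio of mean corrected counts, with over without *mbpa* (x axis), of each entered gene (points) in 16 lists (y axis, number of genes entered in brackets), with the median of each list as a red bar and the median of all genes (-0.28) as a dashed blue line. The myelin list (median 4.0) lies apart from the other 15 lists drawn, whose medians run from -1.86 to 0.73. The oligodendrocyte list (median 2.97), which shares myelin genes, is among the lists not drawn.

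The genes with the highest ratios, among those with a mean of at least 0.5 and above 0 in at least 25% of the cells with *mbpa*, were *mbpa* itself, the myelin genes *mbpb*, *cldnk*, *plp1b*, *nfasca* and *gldn*, and 9 others. First of these was *apoeb* (ENSDARG00000040295), an apolipoprotein E that glia and macrophages secrete, at 28.7 corrected counts per cell with *mbpa* (0 to 143, median 11) and 0.196 without (0 to 18), a log2 ratio of 6.87. It was above 0 in 26 of 35 and 15 of 275 cells, and averaged 2.46 in the TME. The others were *ppp1r1c*, a regulatory subunit of protein phosphatase (3.80 against 0.0291), *anxa13l*, an annexin (6.51 against 0.0873), *myo1cb*, an unconventional myosin (6.29 against 0.116), *fstl3*, a follistatin-like binder of activins (1.31 against 0.00364), and 4 genes without a descriptive name (*si:ch211-214p13.3*, *si:dkey-31g6.6*, *si:ch211-156j16.1* and *si:dkey-164f24.2*), with log2 ratios from 4.32 to 4.73. *fstl3* was above 0 in 13 of 35 cells with *mbpa* and in 1 of 275 without. *fstl3* and *ppp1r1c*, like *nfasca*, lay below the entry mean of 0.05 in the cells without *mbpa* and entered only through the cells with it. The limits of this ranking were set on the cells with *mbpa* as well, so that it is a description only.

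The lowest ratios were chosen by the same limits in the cells without *mbpa*, so that this ranking too is a description only. *krt94*, a keratin, averaged 0.0571 with *mbpa* (above 0 in 1 of 35 cells) and 6.87 without (112 of 275, highest 155). *col6a3*, a chain of collagen VI, and *ptgs2b*, a prostaglandin synthase (cyclooxygenase), were at 0 in all 35 cells, which allows a share of up to 10.0%, and were above 0 in 28.7% and 32.7% of the cells without. *cav1*, caveolin, averaged 0.229 against 3.93, *rgs16*, a regulator of G protein signaling, 0.0571 against 1.04, *inka1a* 0.0857 against 1.3, *cited1*, a transcriptional coregulator, 0.0857 against 1.18, *si:ch211-1a19.3* 0.314 against 3.17 and *slc35c2* 0.114 against 1.23. These genes were missing from nearly all cells with *mbpa*, and present in only a part of the cells without.

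Markers of other cell types were given the same comparison, and their part in the results was not tested. Over all genes, 6.42% were higher and 18% lower. Each of these lists entered few genes, so that its counts describe single genes. Keratinocyte markers (8 of 23 entered, 1 higher, 3 lower, median -0.54, and 0, 2 and -0.37 with depth weights) summed to 2 to 357 corrected counts per cell with *mbpa* and 2 to 1030 without, with *tp63*, *cyt1* and *krt92* at 0 in all 35 cells with *mbpa* and *icn* at 82.7 against 130. Fibroblast markers (7 of 18, none higher, 4 lower, median -1.86, and 0, 4 and -1.72 with depth weights) summed to 0 to 6 and 0 to 20, with *dcn*, *lum* and *pdgfra* at 0 with *mbpa*. Macrophage markers (5 of 20, none past 2-fold, median -0.62, and 0, 1 and -0.33 with depth weights) summed to 0 to 7 and 0 to 175. Of the 19 in the table, 10 were at 0 in all cells with *mbpa*, among them *mpeg1.1*, *c1qa*, *c1qc* and *csf1ra*. *ctsba*, *cd74a*, *grn1* and *lygl1*, all common in the TME, were above 0 in 20, 12, 7 and 5 of the 35 cells. For *ctsba* and *cd74a* the correction of depth adds counts in shallow cells. The source of *apoeb*, a gene macrophages also use, was not tested. Neutrophil, lymphocyte, endothelial, erythrocyte, skeletal muscle and neuron markers summed to at most 6, 3, 2, 5, 2 and 12 in any cell with *mbpa*, with *kdrl*, *cdh5*, *pecam1*, *ptprc* and *ckmb* at 0. Of the pericyte and mural list (5 of 11, 1 higher, 2 lower, median -0.50, and 1, 2 and -0.51 with depth weights) *pdgfrb*, *acta2* and *tagln* were at 0 with *mbpa*, and the higher member was *notch3*. Of the oligodendrocyte list (9 of 15, 5 higher, 1 lower, median 2.97, and 5, 1 and 3.35 with depth weights) the 5 higher genes are the myelin genes *mpz*, *plp1a*, *plp1b*, *cldnk* and *mag*, which that list shares, and *nkx6.2* was at 0 in all 35 cells. Among the 5, *mpz* entered only through the cells with *mbpa*. Perineurial markers (5 of 11, 2 higher, none lower, median 0.73, and 2, 0 and 0.83 with depth weights) summed to 0 to 25 and 0 to 19, with *foxd1* and *cldn1* at 0 with *mbpa*, and the higher members were *tjp1a*, a tight junction scaffold, at 2.00 against 0.425, and *notch3*. Xanthophore and iridophore markers (7 of 16, none higher, 3 lower) had a median of -0.41 (1, 2 and -0.12 with depth weights), with *csf1ra* and *aox5* at 0.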

How the data were processed

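All single-cell values belong to 1 pooled library. Reads were mapped by the authors with Cell Ranger 6.0.2, and cells under 200 genes or above 30% mitochondrial UMIs were dropped. They normalized with SCTransform in Seurat 4.0.2 (R 4.0.5) and clustered at a resolution of 0.4. Their processing notes name the build GRCz11. The deposited gene table (20141 genes, 3968 cells) holds whole numbers that SCTransform corrected to a common depth, a score and not raw counts, so that planned sums of raw counts were replaced by means. The raw UMI count, the detected genes, the percent of mitochondrial and ribosomal UMIs and the state of each cell were taken from the deposited annotation. Depth ran from 341 to 120384 raw UMIs per cell.

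Invasive cells with at least 2000 raw UMIs were grouped by *mbpa* (at least 1, or 0). For genes with a mean of 0.05 or more that were above 0 in at least 5 cells, the ratio was log2((mean with + 0.05)/(mean without + 0.05)), and 2-fold ratios were counted. Depth weights used 5 bins at the quintiles of the cells with *mbpa*. Shares have exact Clopper-Pearson 95% intervals. No test was run, since cells of 1 library are not replicates. Cells had been sorted against debris and doublets before loading. No doublet caller was run, and doublets formed in the droplets were not checked. The procedure was tested on simulated data.

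The members, gene lists and limits were chosen with earlier results of these data known. Genes named were *mbpa*, *pdgfbb*, *krt18a.1*, *mitfa*, *sox10* and the transgene features, the 15 highest and 10 lowest ratios among genes reaching a mean of 0.5 and above 0 in at least 25% of cells of the higher group, the 3 highest and the lowest ratio of each list, and the members of the myelin and Schwann cell lists. Other genes named, and the limit of 3000 raw UMIs, were chosen after seeing the values. The alternatives were an *mbpa* of at least 2, all invasive cells, at least 3000 or 5000 raw UMIs, depth weights, scaling to 10000 per cell, pseudocounts of 0.01 and 0.2, leaving out cells above 10% mitochondrial UMIs or the deepest 5%, other gene filters, a value of at least 2 in place of above 0, and ratios relative to the median of all genes. Ensembl identifiers were matched by symbol. The 6 bulk libraries of sorted melanoma cells were not used. Computations used Python 3.11.15, numpy 2.4.6, pandas 2.3.3 and scipy 1.17.1, and figures matplotlib 3.10.9. One gene that the rule named is not reported here.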

Additional observations from a re-analysis of the deposited data

How the results depend on the processing

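The log2 ratios of the 4 genes the comparison was built on were compared over all settings: they ran from -2.79 to -2.13 for *mitfa* and -1.38 to -0.72 for *Cas9-mCherry*, both lower with *mbpa* throughout, 0.01 to 0.78 for *krt18a.1*, and -0.09 to 0.46 for *pdgfbb*, whose sign was not fixed. The median of the myelin list ran from 2.97, with a pseudocount of 0.2, to 4.27. Counts of genes past 2-fold depended most on the handling of rare genes: 283 were higher and 292 lower with a pseudocount of 0.2, 247 higher and 692 lower with a mean of at least 0.2, and 882 higher and 931 lower relative to the median of all genes, a setting chosen after seeing the data. The median of the repair Schwann cell list turned to 0.13 without a filter and to 0.49 with a mean of at least 0.2, and that of the S phase list turned to 0.65 with a mean of at least 0.2; in each the set of genes entered differs. That of the neural crest list, -0.06, ran from -0.13 to 0.22 and its sign was not fixed. The sign also changed for 4 other medians. That of the basement membrane list, 0.16, turned to -0.02 with all invasive cells and -0.05 without a filter. That of the macrophage list, -0.62, turned to 0.07 with all invasive cells, and that of the pigmentation list, -0.41, to 0.02 from 5000 raw UMIs. The median of the invasive and mesenchymal list, -0.22, turned to 0.05 relative to the median of all genes. Depth weights, at least 3000 raw UMIs, scaling to 10000 and leaving out very deep cells left all 28 values within 1.5-fold. A pseudocount of 0.2 moved 7 of the 28 values. A mean of at least 0.2 moved 4 and reversed 2, and leaving out the filter moved 2 and reversed 1. An *mbpa* of at least 2, all invasive cells, at least 5000 raw UMIs, a pseudocount of 0.01 and ratios relative to the median each moved 1 to 3. Leaving out cells above 10% mitochondrial UMIs removed no cell, since the highest share was 3.35% with *mbpa* and 6.01% without. That setting could therefore change nothing. With a value of at least 2 in place of above 0, the shares of cells with and without *mbpa* were 8.57% and 52.7% for *mitfa* and 2.86% and 34.5% for *Cas9-mCherry*. The limit of 2 moved 9 of the values compared under it and left 3 unmoved. No paired analysis was possible because there is 1 library and no test was run. Of the 35 cells with *mbpa*, which leave wide intervals on every share, 9 lie under 3000 raw UMIs, where the correction of depth adds counts to some genes.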

Other observations

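Further genes outside the lists were chosen after their values were seen, so that they stand for no gene group. The nucleolar genes *npm1a*, *fbl*, *dkc1* and *gnl3* were each at least 2-fold lower with *mbpa*, as were 18% of all genes: *npm1a* averaged 0.40 corrected counts per cell with *mbpa* and 2.68 without, *fbl* 0.143 and 1.02, *dkc1* 0.0857 and 0.709, and *gnl3* 0.0571 and 0.680. With depth weights their log2 ratios were -2.37, -2.06, -2.20 and -2.50, and the median depth-weighted ratio of all genes was -0.09. *npm1a* is among the genes to which the correction of depth adds counts in shallow cells, which raises its value in the group where it is lower.

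*notch3*, a receptor of the Notch pathway, averaged 5.57 with *mbpa* (0 to 19, median 4) and 0.509 without (0 to 12), and was above 0 in 29 of 35 and 33 of 275 cells. In the TME it was above 0 in 20.5% of cells, and in the other melanoma states in 0.617% to 1.64%. *hey2* and *her8a*, transcriptional repressors of the Hairy and Enhancer of split family, averaged 1.37 against 0.156 and 1.49 against 0.0800 and were above 0 in 16 of 35 against 10 of 275 and in 15 of 35 against 5 of 275 cells. Each was also higher with depth weights, with log2 ratios of 2.50 for *notch3*, 2.06 for *hey2* and 3.25 for *her8a*.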
